A study of Mus musculus with 34 samples.

Results

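H3K27ac in unstimulated BMDCs was compared between CTCF-WT and CTCF-KO cells. H3K27ac is the acetylation of lysine 27 of histone H3, and the data were 1 list of ChIP-seq peaks for each genotype. Peaks lying within 500 bp of each other in a list were merged into regions, and regions of both lists were classed as shared, WT only or KO only by an overlap of at least 1 bp. The lists gave 102901 regions, 54962 in WT and 47939 in KO, of 1239237 regions that the 30 lists of the series hold when merged in the same way.

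BMDCs are dendritic cells grown from mouse bone marrow, here of C57BL/6 mice aged 8 weeks per the labels, over 6 days with the cytokine GM-CSF. Both genotypes carried CreER, a Cre recombinase expressed from the Rosa26 locus that tamoxifen activates, and both received 4-OH tamoxifen on the first day. Only CTCF-KO cells (CreER;CTCF fl/fl) also carried loxP-flanked Ctcf alleles, so deletion was induced as the bone marrow culture began. CD11c+ cells were selected on beads before fixation, and other CD11c+ cells of the culture remain in such a selection. For comparison, lists called WTLPS and KOLPS came from the same genotypes after 3 h of LPS, a bacterial ligand of the receptor TLR4, at 100 ng/ml. STAT5 was profiled in WT and KO after 15 min of renewed GM-CSF. Each condition had 1 list, so differences between WT and KO have no replicate check, and the 95% Wilson intervals in parentheses cover counting error only. In a list from many cells, fewer cells that carry a mark and less of the mark in each cell cannot be told apart.

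H3K27ac lies over active promoters and active enhancers, while H3K4me1 covers enhancers whether active or not, H3K4me3 covers promoters, and H3K27me3 marks Polycomb-repressed chromatin. CTCF is a zinc finger protein at which the cohesin ring, of which SMC1 is a subunit, stops extruding chromatin loops, and cohesin also lies at enhancers and promoters. GM-CSF acts through JAK2 and STAT5, which dendritic cells grown with this cytokine depend on.

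The sequences that follow show STAT5 and CTCF sites that lost their peak in KO. The factor peaks overlapped H3K27ac regions found in 1 genotype only, so that a summit can lie outside the region. The sequences run 50 bases up- and downstream from the summit of the factor peak, from the plus strand of GRCm38 (mm10). Bases of the motif, on either strand, are in capitals. The STAT5 motif searched was TTCNNNGAA, and the CTCF motif was the core of the CTCF consensus. The STAT5 sites, at WT only regions, had the highest STAT5 −log10 q among those that held the motif.
Meis1-distal STAT5 site: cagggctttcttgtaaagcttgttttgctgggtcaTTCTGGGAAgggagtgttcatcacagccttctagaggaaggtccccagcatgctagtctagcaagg
Ybx3-distal STAT5 site: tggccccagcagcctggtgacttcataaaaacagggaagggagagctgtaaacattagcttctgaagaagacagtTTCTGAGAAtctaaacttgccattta
Myl12b-distal STAT5 site: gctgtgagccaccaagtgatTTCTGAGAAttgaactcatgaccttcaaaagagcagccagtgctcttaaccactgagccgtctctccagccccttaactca
The Meis1-distal site, at chr11:19334135-19334235, lay outside genes and 315200 bp from the start of Meis1, a homeobox factor of blood progenitors. Its H3K27ac region was 8715 bp long, the longest of the WT only class, and regions were also called there in WTLPS and KOLPS. The Ybx3-distal site (chr6:131418871-131418971) lay outside genes, and the Myl12b-distal site (chr17:70958464-70958564) lay within 2.5 kb of the start of a gene that does not encode a protein. A WT SMC1 peak lay at all 3 H3K27ac regions and a KO SMC1 peak at 0 of them. The STAT5 motif stood in 37.9% (36.8 to 38.9) of such windows over all 8185 WT STAT5 peaks and in 3.41% of windows 5 kb away. It stood in 44.1% (42.7 to 45.4) of the 5303 peaks that were also called in KO and in 26.5% (24.9 to 28.1) of the 2882 that were not.

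The CTCF sites had the highest CTCF −log10 q among those with the motif at WT only regions (Sema6d and Rab10) and KO only regions (Plekha2, Klhdc9 and Mrtfa).
Sema6d intron CTCF site: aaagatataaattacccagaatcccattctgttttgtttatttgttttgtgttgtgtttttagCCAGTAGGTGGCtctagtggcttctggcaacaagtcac
Rab10 intron CTCF site: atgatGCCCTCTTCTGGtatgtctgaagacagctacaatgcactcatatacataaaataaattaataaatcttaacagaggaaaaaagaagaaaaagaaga
Plekha2 intron CTCF site: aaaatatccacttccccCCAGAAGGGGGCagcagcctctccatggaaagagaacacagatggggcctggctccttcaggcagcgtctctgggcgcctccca
Klhdc9 promoter CTCF site: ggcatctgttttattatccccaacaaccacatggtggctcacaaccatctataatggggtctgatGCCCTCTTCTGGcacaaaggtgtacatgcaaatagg
Mrtfa intron CTCF site: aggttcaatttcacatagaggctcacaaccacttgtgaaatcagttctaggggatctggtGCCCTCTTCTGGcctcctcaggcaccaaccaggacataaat
The Sema6d site (chr2:124605449-124605549) lay 4797 bp from the gene's start, and its CTCF peak reached into 2 WT only regions, 1 to either side, so it is shown once. The Rab10 site is at chr12:3305447-3305547, and the Plekha2 site, nearest to the start of Htra4, at chr8:25044280-25044380. The Klhdc9 site is at chr1:171358562-171358662 and also lies inside Pfdn2, and the Mrtfa site is at chr15:81049830-81049930. Strong CTCF peaks lost in KO thus overlapped regions of both unshared classes, while the summits shown lay outside these regions. The CTCF core stood in 27.1% of such windows over all 60537 WT CTCF peaks, in 0.933% of windows 5 kb away, in 24.9% (22.5 to 27.5) of lost peaks at WT only regions and in 26.5% (23.4 to 29.8) of lost peaks at KO only regions.

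Of the WT regions, 26149 were shared and 28813 were WT only, and of the KO regions 30217 were shared and 17722 were KO only. WT only regions thus made up 52.4% of the WT list and KO only regions 37% of the KO list. Shared regions were long and strong, and unshared regions were short and weak. The median width was 1327 bp in shared WT regions and 271 bp in WT only regions, and 867 bp and 183 bp in the KO list. Shared regions held 56.8 of the 69.2 Mb spanned by WT regions and 44.8 of the 49.9 Mb spanned by KO regions. A single peak made up 87.8% of WT only and 90.0% of KO only regions, against 50.02% and 49.2% of shared ones.

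Strength, the highest −log10 q in a region, separated the classes. Of WT regions below 3 on this scale 15.9% (15.2 to 16.6) were shared, of those between 3 and 5 26.5%, of those between 5 and 8 54.7%, and of those at 8 or more 93.8%. The same shares in the KO list were 32.3%, 47.4%, 72.3% and 96.1%. Only 797 WT regions and 512 KO regions of a strength of 8 or more were unshared. Unshared regions often lay beside a region of the other list: 14.5% of WT only regions lay within 500 bp of a KO region and 42.7% within 2 kb, while of KO only regions 24.9% lay within 500 bp of a WT region and 56.0% within 2 kb.

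**Figure D1:**
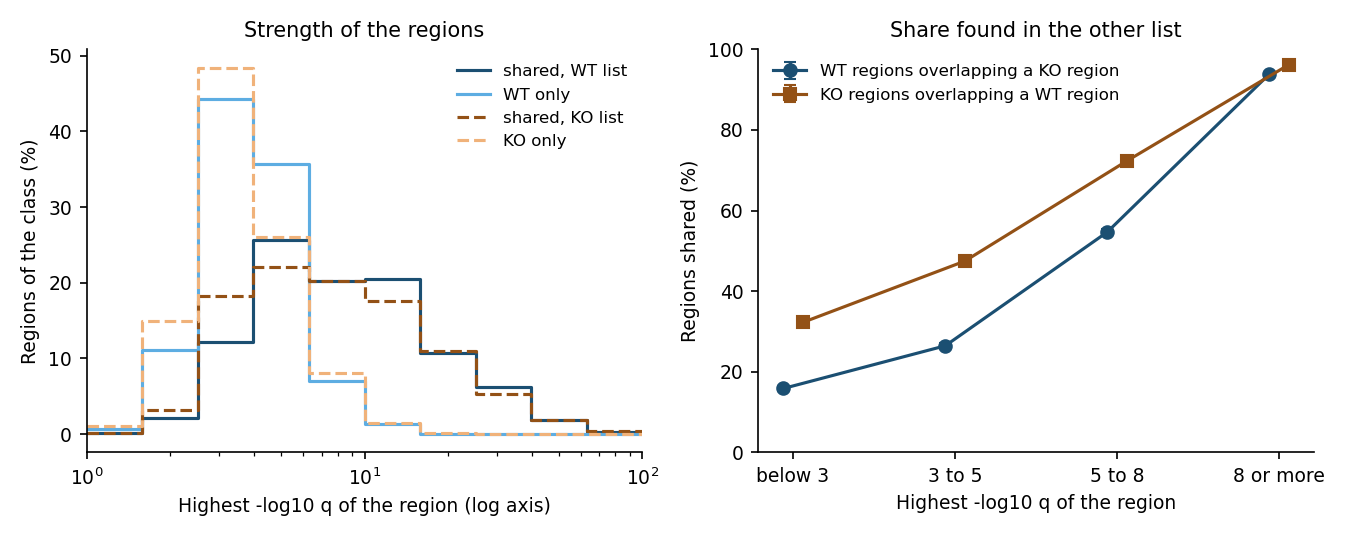
Left, share of the regions of each class (%) by their highest −log10 q, on a log axis. Right, share of WT and KO regions that overlapped a region of the other list (%) in 4 bands of −log10 q, with 95% Wilson intervals that are mostly smaller than the points; it rose from 15.9% to 93.8% in WT and from 32.3% to 96.1% in KO.

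The coverage of the libraries moved with the counts. The mean number of fragments over a background base, worked back from the peak values, was 1.17 in WT and 0.748 in KO, and 1.198 in WTLPS and 0.801 in KOLPS. With WT fragments kept at the ratio of the coverages, 0.638, 66640 of 83461 WT peaks were expected to be called still. The strongest peak would remain in 20340 of the 28813 WT only regions (70.6%) and in 90.9% of the shared WT regions. This quantity grows with both the number and the length of the fragments. The shortest peak, which follows fragment length in such calls, was 163 bp in WT and 123 bp in KO, and 174 bp in WTLPS and 121 bp in KOLPS, so the KO libraries also appeared to hold shorter fragments. Both differences stood with KO in both pairs of lists, so neither can be told apart from the genotype.

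The LPS lists came from libraries that had no part in the classes. Coverage was lower and the shortest peak shorter in KOLPS than in WTLPS, as in KO, and their part in these shares was not tested. WT only regions were called in WTLPS more often than in KOLPS: 25.5% (25.02 to 26.03) had a peak in WTLPS alone, 3.86% (3.64 to 4.08) in KOLPS alone, 7.88% in both and 62.7% in neither. KO only regions were divided more evenly, with 13.8% (13.3 to 14.3) in KOLPS alone, 11.02% (10.6 to 11.5) in WTLPS alone, 11.1% in both and 64.1% in neither. The direction was clearer among strong regions, here counted as called where an LPS peak lay within 250 bp of the summit, which does not depend on the region's width. Of the 797 WT only regions of a strength of 8 or more, 73.5% were called in WTLPS and 20.2% in KOLPS, and of the 512 such KO only regions 63.7% were called in KOLPS and 34.4% in WTLPS. KO only regions below a strength of 3 were called in WTLPS (21.1%) about as often as in KOLPS (18.99%).

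**Figure D2:**
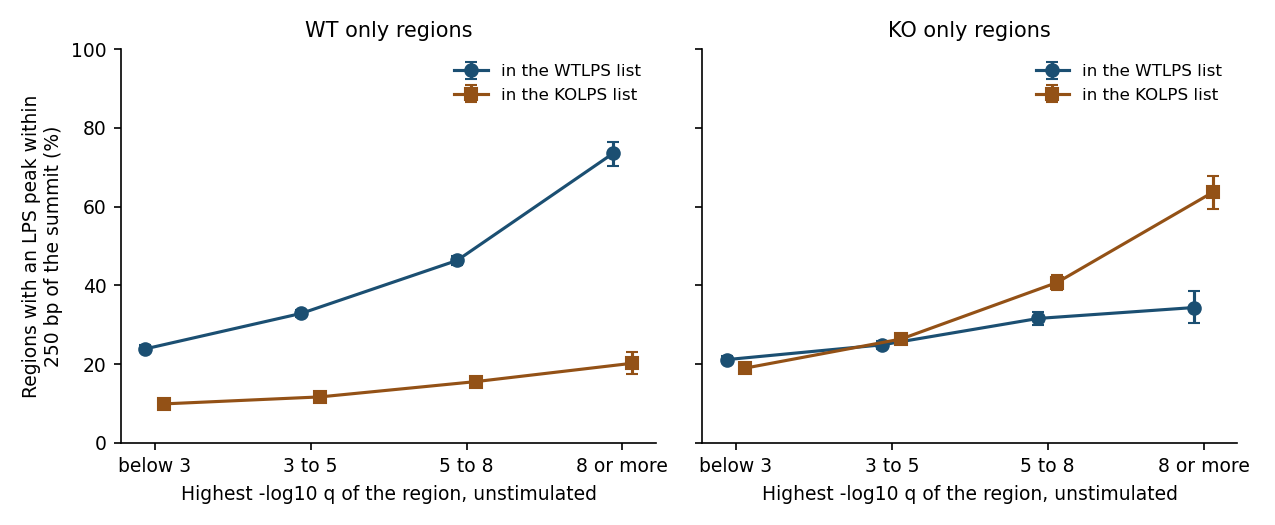
Share of WT only (left) and KO only (right) H3K27ac regions with a peak of the WTLPS and KOLPS lists within 250 bp of their summit (%), by the highest −log10 q of the unstimulated region, with 95% Wilson intervals. Among the strongest WT only regions 73.5% were called in WTLPS and 20.2% in KOLPS, and among the strongest KO only regions 63.7% in KOLPS and 34.4% in WTLPS.

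Unshared regions lay mostly at distal sites marked as enhancers. Promoters, taken as windows reaching 2.5 kb up- and downstream of where the longest transcript begins, held 40.7% of shared WT regions, 14.7% (14.3 to 15.1) of WT only regions and 18.6% (18.1 to 19.2) of KO only regions. Introns held 27.2% of shared WT, 47.0% of WT only and 42.7% of KO only regions. A WT H3K4me1 peak overlapped 86.9% of shared WT, 73.2% of WT only and 71.3% of KO only regions, and a KO H3K4me1 peak overlapped 68.5% of the KO only and 68.0% of the WT only regions. H3K4me1 peaks of both genotypes lay at 62.9% (62.3 to 63.4) of WT only and 62.4% (61.7 to 63.1) of KO only regions. Shared regions were wider, and within 250 bp of the summit the order of the classes depended on strength. At a strength of 8 or more WT H3K4me1 lay there at 66.2% of shared WT, 82.8% of WT only and 74.8% of KO only regions. Below a strength of 3 these shares were 83.2%, 69.65% and 71.35%. H3K4me3 of WT lay at 46.0% of shared WT, 8.43% of WT only and 12.5% of KO only regions. WT H3K27me3 reached 3.87% of WT only and 4.70% of KO only regions and 1.67% of shared WT regions.

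CTCF, SMC1 and STAT5 peaks overlapped unshared regions less often than shared ones, which were also wider, and the unshared classes differed little from each other. WT CTCF lay at 18.99% of shared WT regions, 6.90% (6.62 to 7.20) of WT only regions and 7.21% (6.83 to 7.60) of KO only regions. WT SMC1 lay at 50.4%, 11.4% and 12.3% of these classes. WT STAT5 lay at 13.2% of shared WT regions, 1.99% (1.84 to 2.16) of WT only regions and 1.95% (1.75 to 2.16) of KO only regions. KO SMC1 differed between the unshared classes, at 5.14% (4.89 to 5.397) of WT only and 7.98% (7.59 to 8.39) of KO only regions. Within 250 bp of the summit KO SMC1 lay at 5.42% of WT only and 9.33% of KO only regions, and among those of a strength of 8 or more at 14.3% and 32.0%. KO STAT5 lay at 1.57% (1.44 to 1.72) of WT only and 2.14% (1.94 to 2.37) of KO only regions. Within 250 bp of the summit, a window of 1 width for every region, the difference from shared regions was smaller: WT CTCF lay at 9.40% of shared WT, 6.99% of WT only and 8.10% of KO only regions, WT SMC1 at 39.5%, 11.9% and 14.5%, and WT STAT5 at 7.21%, 1.98% and 2.35%. Among regions of a strength of 8 or more, WT CTCF lay within this window at 10.2% (9.64 to 10.7) of shared WT and 11.7% (9.62 to 14.1) of WT only regions.

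**Figure D3:**
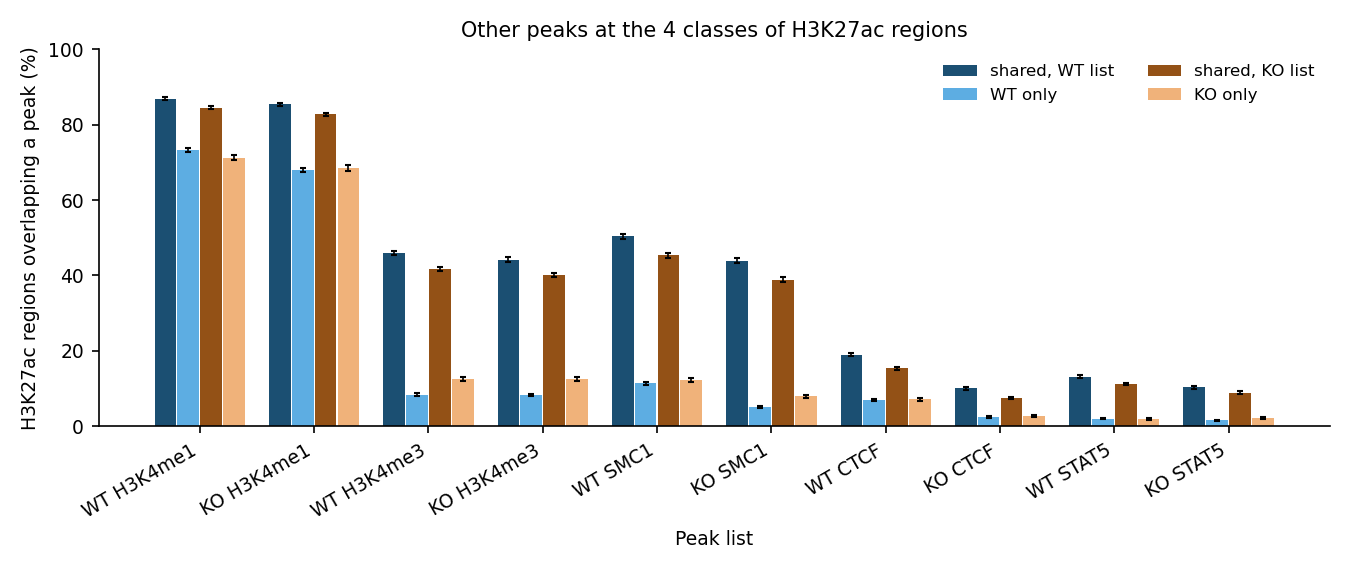
Share of H3K27ac regions (%) of each class that overlapped a peak of 10 other lists of unstimulated cells, with 95% Wilson intervals. Shared regions, which were also wider, stand highest throughout: WT SMC1 lay at 50.4% of shared WT regions, 11.4% of WT only and 12.3% of KO only regions.

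Seen from the factor sites, H3K27ac in WT alone was more frequent than in KO alone at STAT5 peaks lost in KO, and also at kept ones. Of the 2882 STAT5 peaks called in WT and not in KO, 12.9% (11.7 to 14.1) had H3K27ac in WT alone, 4.997% (4.26 to 5.85) in KO alone and 40.0% in both. Of the 1559 STAT5 peaks called in KO and not in WT, 5.84% (4.78 to 7.11) had H3K27ac in WT alone and 8.72% (7.42 to 10.2) in KO alone. At the 5303 STAT5 peaks of both genotypes the shares were 11.9% (11.1 to 12.8) and 7.22% (6.56 to 7.95). The share in WT alone thus differed little between lost and kept STAT5 peaks. Most CTCF sites carried no H3K27ac at all, whether lost or kept. Of 46166 CTCF peaks called in WT and not in KO, 87.6% lay outside H3K27ac in both lists. H3K27ac lay at 6.59% of them in both lists, at 3.74% in WT alone and at 2.08% in KO alone. Of the 14371 CTCF peaks also called in KO, these shares were 77.1%, 12.3%, 6.90% and 3.65%. Of 41696 lost SMC1 peaks, 7.49% had H3K27ac in WT alone and 3.26% in KO alone, against 8.97% and 7.02% of the 21942 SMC1 peaks that were kept. A lost CTCF site lay within 10 kb of 46.1% of WT only, 48.1% of KO only and 54.0% of shared WT regions.

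Shared regions were compared by rank, the percentile of a region's strength within its own list, over 24146 pairs that were each other's strongest partner. The median change from WT to KO was −1.63 percentile points. Outside promoters it was −8.66 points at 1883 regions with SMC1 in WT and not in KO, and −6.92 at 579 with SMC1 in KO alone. It was −1.86 at 6335 regions with SMC1 in both and −7.20 at 5210 regions with SMC1 in neither. Regions with and without STAT5 loss showed smaller differences: −4.64 points at 682 regions outside promoters with STAT5 in WT alone, −2.21 at 1672 with STAT5 in both, −0.72 at 176 with STAT5 in KO alone and −4.48 at 11477 with STAT5 in neither. The quartiles of each of these groups lay on both sides of 0.

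Motifs of myeloid factors were searched in 501 bases around the strongest summit of each region, on both strands. Windows 5 kb away give the share that such sequence holds in general. The PU.1 motif GAGGAAGT, bound by the master regulator of myeloid cells, stood at 5.13% (4.87 to 5.41) of shared WT regions against 3.34% of their displaced windows, at 4.37% (4.08 to 4.68) of KO only regions against 3.66%, and at 3.26% (3.06 to 3.47) of WT only regions against 3.30%. The AP-1 motif TGANTCA stood at 17.1% (16.6 to 17.7) of KO only regions against 15.2%, and at 15.3% of WT only regions against 15.4%. TTCNNNGAA, the STAT5 motif, stood at 17.1% (16.7 to 17.6) of WT only regions against 15.8%, and at 14.8% of KO only regions against 15.4%. The C/EBP motif TTGCNNAA stood at 21.3% of WT only regions against 20.2% and at 19.9% of KO only regions against 19.8%. The NF-κB motif stood at 0.864% of shared WT regions against 0.578%, at 0.559% of WT only and at 0.587% of KO only regions. The composite of ETS and IRF sites stood at 5.76% of shared WT regions against 5.11%, at 5.32% of WT only regions against 5.515%, and at 4.65% of KO only regions against 5.30%. The CTCF core stood at 2.77% of WT only regions against 3.43%, and at 3.36% of KO only regions against 4.02%. GC content also differed between the classes. It was 41.3% at WT only summits, 45.2% at KO only summits and 46.9% at shared WT summits, against 43.5 to 44.9% 5 kb away. The part of GC content in the motif shares was not tested.

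The length of sequence under H3K27ac peaks within 50 kb of a gene's start also differed between the genotypes. Over 16318 protein-coding starts with a peak in any of the 4 H3K27ac lists, the median was 3.85 kb in WT, 2.81 kb in KO, 3.29 kb in WTLPS and 1.963 kb in KOLPS, and WTLPS exceeded KOLPS at 77.0% of them. Starts were ranked by the difference of WT and KO, with windows that do not overlap. At the 20 with the most WT excess the medians were 51.8 kb in WT and 20.3 kb in KO. The LPS lists, which did not enter the ranking, had medians of 43.4 kb in WTLPS and 16.0 kb in KOLPS there, and WTLPS was longer at 20 of 20 and at 100 of the first 100. Covered length also depends on fragment length and coverage, which were lower in KO and in KOLPS, and their part in these differences was not tested. At the 20 with the most KO excess the medians were 10.3 kb in WT and 18.9 kb in KO, then 8.93 kb in WTLPS and 13.4 kb in KOLPS, and KOLPS was longer at 13 of 20 and at 64 of the first 100. Across all of these starts KOLPS was longer than WTLPS at 19.1%.

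Starts with the most WT excess included immune genes of several kinds and others. At Zfp366 (start site at 99184823 of chromosome 13), which encodes the dendritic cell regulator DC-SCRIPT, peaks covered 53.2 kb in WT and 18.2 kb in KO, and 43.7 kb in WTLPS and 16.0 kb in KOLPS. At H2-Eb1, which encodes an MHC class II chain, they covered 68.8 kb in WT, 37.8 kb in KO, 71.8 kb in WTLPS and 37.2 kb in KOLPS. At Pdcd1lg2, which encodes the checkpoint ligand PD-L2, they covered 95.1 kb in WT, 62.8 kb in KO, 90.0 kb in WTLPS and 44.0 kb in KOLPS. The peaks of WT and WTLPS were longer at each of these genes.

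Jak2, the kinase downstream of the GM-CSF receptor, had 56.7 kb in WT and 23.2 kb in KO, and 51.6 kb in WTLPS and 25.9 kb in KOLPS. Rel, an NF-κB subunit, had 50.9 kb in WT and 22.9 kb in KO, and 53.1 kb in WTLPS and 24.3 kb in KOLPS. Map3k14, the kinase NIK of the noncanonical NF-κB pathway, had 61.7 kb in WT and 31.3 kb in KO, and 30.8 kb in WTLPS and 18.5 kb in KOLPS. Birc3, an inhibitor of apoptosis that NF-κB induces, had 43.1 kb in WT and 14.4 kb in KO, and 43.2 kb in WTLPS and 15.9 kb in KOLPS. In these signalling genes too the order of the genotypes held in both pairs of lists.

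The most WT excess of all lay at Klri1, a gene of the killer lectin receptor cluster on chromosome 6, with 54.5 kb in WT, 9.31 kb in KO, 40.1 kb in WTLPS and 7.85 kb in KOLPS. A second window of this cluster, at Klrd1, had 35.3 kb in WT and 5.78 kb in KO, then 20.6 kb in WTLPS and 3.67 kb in KOLPS. Fgl2, which encodes a fibrinogen-like immune regulator, had 32.1 kb in WT and 4.59 kb in KO, and 32.2 kb in WTLPS and 5.13 kb in KOLPS. Macc1 had 38.2 kb in WT and 8.03 kb in KO, and 58.5 kb in WTLPS and 9.80 kb in KOLPS. WT peaks at these loci thus formed domains of which KO kept a small share. The other starts among the first 20 were Btg1, Ppp1r1c, Samsn1, Ninj2, Hfe, Nabp1, Tmem123, Dusp22 and Dnajc15, with 37.8 to 71.4 kb in WT and 10.5 to 36.4 kb in KO.

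CTCF and cohesin varied at these loci. A WT CTCF peak lay within 50 kb of 19 of the 20 starts and a KO CTCF peak within 50 kb of 11. KO SMC1 peaks lay near 20 of 20 and KO STAT5 peaks near 19, against 74.5% and 33.0% of all starts with a peak. At the 20 starts with the most KO excess, KO CTCF lay near 18, KO SMC1 near 19 and KO STAT5 near 16. Around Klri1 the lists held 3 WT and 0 KO CTCF peaks, 19 WT and 11 KO SMC1 peaks, 2 WT and 0 KO STAT5 peaks, and 13 WT and 17 KO H3K4me1 peaks. Around Jak2 they held 9 WT and 2 KO CTCF peaks, 25 WT and 20 KO SMC1 peaks and 3 STAT5 peaks in each genotype. Over all starts with a peak, WT CTCF lay near 15792 of 16318 and KO CTCF near 13664.

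The most KO excess lay at Socs3. Socs3, a feedback inhibitor of cytokine signalling, had 17.1 kb in WT and 33.1 kb in KO, but 39.9 kb in WTLPS and 36.0 kb in KOLPS. Il1b, the cytokine IL-1β, had 19.8 kb in WT and 29.1 kb in KO, but 42.9 kb in WTLPS and 35.9 kb in KOLPS. At both of these LPS-induced genes the order of the genotypes turned in the LPS lists. Cebpb, a transcription factor of macrophages and granulocytes, had 23.5 kb in WT and 33.0 kb in KO, and 17.7 kb in WTLPS and 26.6 kb in KOLPS. Cmklr1, the receptor for the chemoattractant chemerin, had 10 kb in WT and 19.8 kb in KO, and 8.62 kb in WTLPS and 14.7 kb in KOLPS. Ralgds had 6.66 kb in WT and 14.8 kb in KO, and 4.93 kb in WTLPS and 12.5 kb in KOLPS. KO was longer in both pairs of lists at these last 3 genes. The other 15 starts with the most KO excess were Zdhhc12, Gas7, Slc36a1, Smg9, Klk1b1, Susd1, Klk14, Tle2, Scgb1a1, Slc35a5, Fcrl6, F830045P16Rik, Has1, Mthfd2l and Scgb2a2, with 0.294 to 32.5 kb in WT and 7.05 to 39.4 kb in KO. WT minus KO was −16.0 kb at Socs3, the most KO excess, and 45.2 kb at Klri1.

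**Figure D4:**
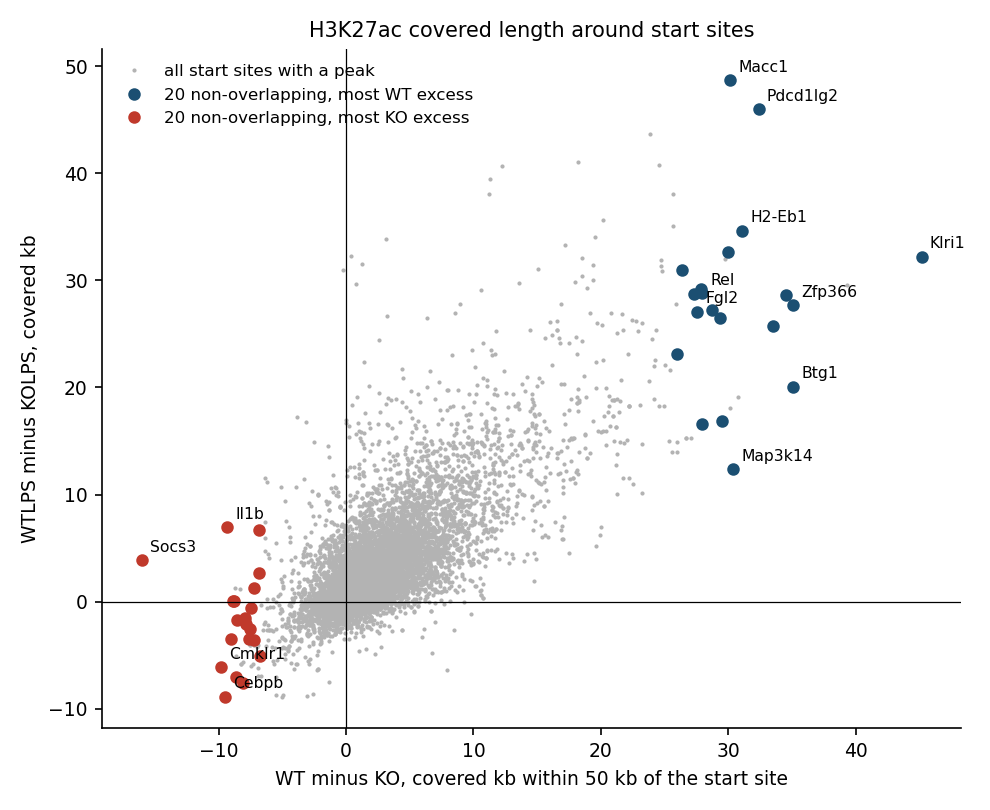
Length under H3K27ac peaks within 50 kb of each protein-coding start, as WT minus KO (horizontal axis, kb) and WTLPS minus KOLPS (vertical axis, kb). Grey points are 16318 starts, blue points the 20 starts with the most WT excess, of which 20 lie above 0 on the vertical axis, and red points the 20 with the most KO excess, of which 13 lie below 0.

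**Figure D5:**
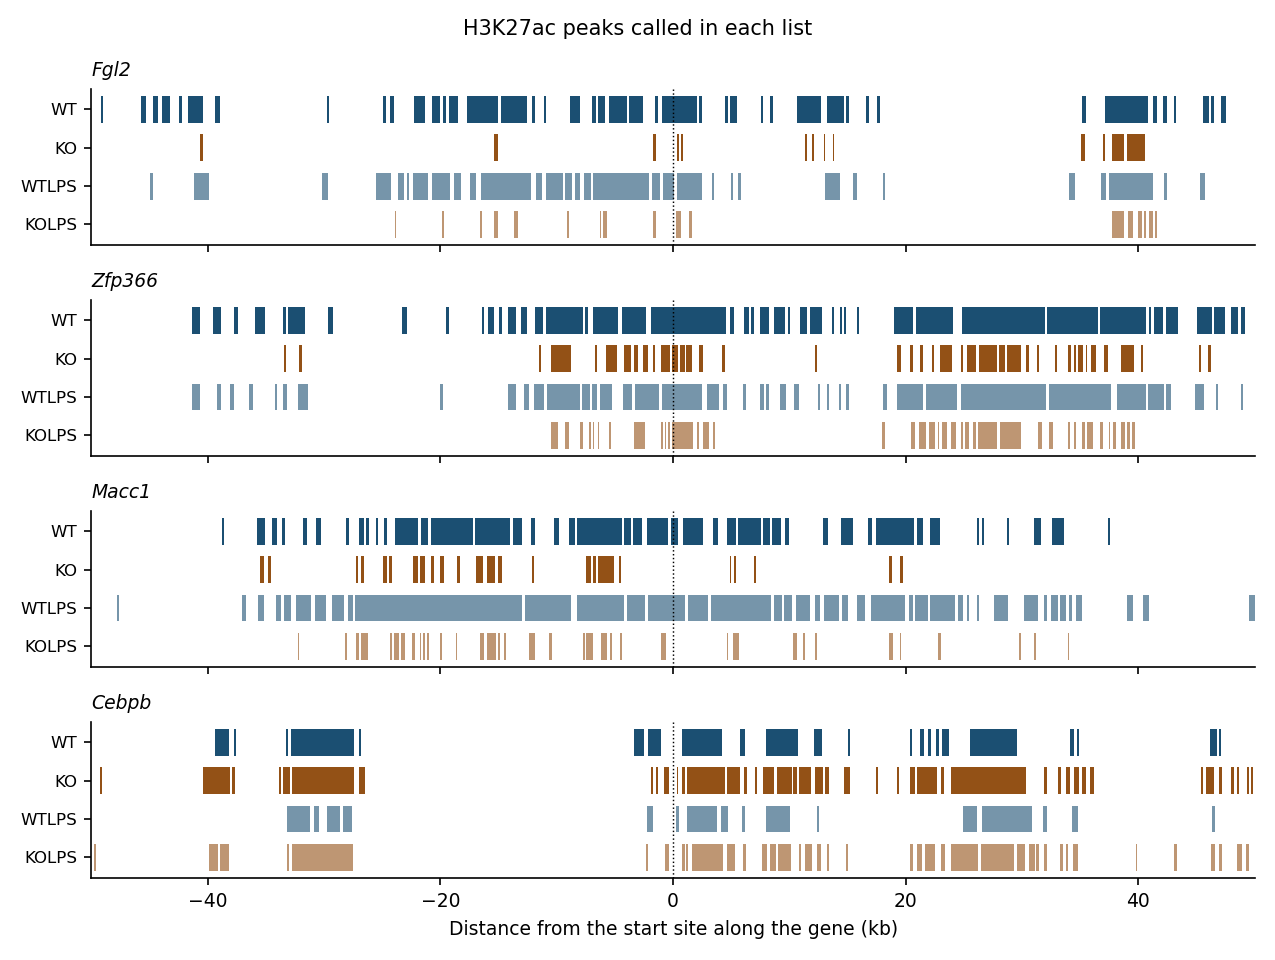
H3K27ac peaks of the 4 lists (bars) within 50 kb of the start sites of Fgl2, Zfp366, Macc1 and Cebpb, along the direction of the gene (kb). Peaks around Fgl2 covered 32.1 kb in WT and 4.59 kb in KO, and those around Cebpb 23.5 kb in WT and 33.0 kb in KO.

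The number of separate regions gave a related picture. Outside promoters, Ehf, an ETS-family factor, had the most WT only regions within 50 kb of its start, 26, with 6 KO only regions, and peaks covered 31.4 kb in WT, 8.17 kb in KO, 12.1 kb in WTLPS and 1.98 kb in KOLPS. Klrc2 (22 WT only regions), Pmp2 (21), Tbc1d9 and its neighbour Gm10645, Fgl2, Gm3646 and Bmp2k (20 each), Slc7a11 and Klrc3 (19 each) followed. Slc7a11, the cystine transporter, had 45.7 kb in WT and 21.6 kb in KO, and 42.6 kb in WTLPS and 20.6 kb in KOLPS. The most KO only regions lay near Susd1 (17 against 4 WT only), Cd69 (15 against 3), F830045P16Rik (14 against 2), and 1700016C15Rik, Myh9, Il1b, Ndst1 and Clec12a (13 each), then Pid1 and Gnptab (12 each). Near Cd69, an early activation marker, peaks covered 22.5 kb in WT and 26.3 kb in KO, but 39.7 kb in WTLPS and 22.4 kb in KOLPS. WTLPS covered more than KOLPS at 9 of these 10 starts, against 77.0% of all starts with a peak, and KOLPS more at Susd1. Without LPS, WT already covered more at Clec12a (34.1 kb in WT and 28.9 kb in KO), Myh9, 1700016C15Rik and Pid1, and KO at the rest.

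Presence of H3K27ac at promoters differed little. Of 21938 protein-coding promoters, 9021 (41.1%) had a peak in both genotypes, 661 (3.01%) in WT alone, 744 (3.39%) in KO alone and 11512 (52.5%) in neither. After LPS 37% had a peak in both genotypes, 4.27% in WTLPS alone, 3.78% in KOLPS alone and 54.9% in neither. Of the WT only promoters 32.8% (29.4 to 36.5) were called after LPS in WTLPS alone and 5.45% (3.96 to 7.45) in KOLPS alone. Of the KO only promoters 24.5% (21.5 to 27.7) were called in KOLPS alone and 8.74% (6.91 to 10.98) in WTLPS alone. WT H3K27me3 lay at 8.58% of promoters with H3K27ac in both genotypes, 24.96% of WT only, 36.8% of KO only and 41.0% of those with none.

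Rank among promoters showed what presence did not. Fold enrichment at a promoter was turned into a percentile among the promoters called in the same list, and 7746 promoters called in all 4 lists were ordered by the change from WT to KO. Of the 20 with the largest fall, 19 also stood lower in KOLPS than in WTLPS, and of the 20 with the largest rise 15 also stood higher. Over the first 100 of each direction these counts were 85 and 85, against 49.1% lower and 50.9% higher of all 7746 promoters. Kif11, a mitotic kinesin, stood at percentile 93.1 in WT and 25.5 in KO, and 73.9 in WTLPS and 4.66 in KOLPS. Traf2, an adaptor of TNF receptor signalling, stood at 98.1 in WT and 28.6 in KO, and 94.5 in WTLPS and 26.9 in KOLPS. Mthfd2, a mitochondrial folate enzyme, stood at 96.1 in WT and 12.7 in KO, and 95.4 in WTLPS and 42.8 in KOLPS. Zmynd8 had the largest fall, from 97.6 to 2.96, with 26.6 in WTLPS and 1.65 in KOLPS.

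The largest rise lay at Gm49369, from percentile 3.79 in WT to 97.9 in KO, with 9.86 in WTLPS and 97.0 in KOLPS. Chst3, which encodes a chondroitin sulfotransferase, rose from 23.5 in WT to 94.5 in KO, with 13.1 in WTLPS and 74.9 in KOLPS, and 0 WT only but 5 KO only regions lay within 50 kb of its start. A WT CTCF peak lay at the Chst3 promoter and a KO CTCF peak did not. Adrm1, a ubiquitin receptor of the proteasome, rose from 8.62 to 87.4, with 16.1 in WTLPS and 97.3 in KOLPS. Tomm20, a receptor of the mitochondrial import machinery, rose from 23.5 to 91.1, with 26.6 in WTLPS and 85.5 in KOLPS. These promoters kept the direction in both pairs of lists. Ccr7, the chemokine receptor that guides dendritic cells to lymph nodes, fell from percentile 93.8 in WT to 32.1 in KO, with 80.1 in WTLPS and 52.8 in KOLPS. It was 1 of 12 dendritic cell markers called in all 4 lists, of which 9 stood lower and 3 higher in KO, with a median change of −2.25 points. Csf1r, the receptor for M-CSF on macrophages, stood at 96.1 in WT and 99.9 in KO, and 79.4 in WTLPS and 93.4 in KOLPS.

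Markers of dendritic cells carried promoter H3K27ac in both genotypes and those of lymphoid and erythroid cells did not. Of 14 dendritic cell markers 12 had promoter H3K27ac in both genotypes and 2, Flt3 and Cd209a, in neither. Over all protein-coding promoters these shares were 41.1% and 52.5%. Of 4 markers each of B cells, T cells, mast cells and basophils, and erythroid cells, 0 had promoter H3K27ac in WT or KO. Covered length within 50 kb was longer in WT at 14 of 14 dendritic cell markers, against 70.8% of all starts, and at 13 of 14 in the WTLPS list against KOLPS. Irf4, a factor of these cells, had 26.4 kb in WT, 11.8 kb in KO, 30.5 kb in WTLPS and 11.6 kb in KOLPS, and Zbtb46, a factor of classical dendritic cells, had 25.9, 11.2, 26.5 and 7.85 kb in the same order. Ciita, the master regulator of MHC class II, had 53.4, 30.7, 53.1 and 26.8 kb. Some of these windows overlap, as at H2-Aa and H2-Ab1.

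Markers of other myeloid cells moved with the genotype at single genes. Of 6 macrophage markers covered length was longer in WT at 4 and in KO at 2, Csf1r (27.2 kb in WT, 29.5 kb in KO) and Cd14 (12.8 and 15.5 kb). The Fcgr1 promoter was called in KO alone, at a fold of 4.58. Of 8 neutrophil markers 6 had no promoter peak in either genotype and 2 had one in KO alone. Over all protein-coding promoters these shares were 52.5% and 3.39%. S100a8, a neutrophil and monocyte calcium-binding protein, had a fold of 11.6 in KO and 8.33 in KOLPS and no peak in WT or WTLPS. Camp had a fold of 7.44 in KO, 8.33 in KOLPS and 5.01 in WTLPS. Summed over the 8 genes, covered length was 1.06 times as long in WT as in KO, against 1.34 times over all starts, and the defining genes Ly6g, Mpo and Elane had no promoter peak. Covered length was longer in KO at 5 of the 8 neutrophil markers and in WT at 3. It was longer in WT at 4 of 4 T cell markers, with a sum of 30.8 kb in WT and 12.6 kb in KO, at 3 of 4 B cell markers (14.1 and 10.7 kb), at 2 of 4 mast cell and basophil markers (5.34 and 2.95 kb) and at 1 of 4 erythroid markers (6.85 and 6.87 kb). The part of other cell types in the differences between WT and KO was not tested.

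Among immune gene lists, chosen by function, promoter H3K27ac was mostly shared. Over all 21938 protein-coding promoters it was called in both genotypes at 41.1%, in WT alone at 3.01% and in KO alone at 3.39%. All 17 genes of MHC and antigen presentation had it in both genotypes. Of 12 costimulatory and checkpoint ligands 11 had it in both and Cd70 in WT alone, and of 37 genes of the TLR and NF-κB pathway 35 had it in both, Nfkb1 in WT alone and Tlr3 in KO alone. Of 25 genes of GM-CSF, JAK and STAT5 signalling 23 had it in both, Ccnd1, which encodes cyclin D1, in WT alone and 1 in neither. Of 18 cytokines 15 had it in both, Il12b in WT alone and Il23a in KO alone. After LPS all 18 had it in both, against 37% of all protein-coding promoters. Of the chemokines Cxcl9 was called in WT and WTLPS alone, at folds of 3.68 and 6.83, and Cxcl1 in KO but in both genotypes after LPS.

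Covered length was longer in WT than in KO at 9 of 12 costimulatory and checkpoint ligands, 21 of 25 genes of GM-CSF, JAK and STAT5 signalling, 29 of 37 of the TLR and NF-κB pathway, 15 of 17 of MHC and antigen presentation, and 10 of 18 cytokines, against 70.8% of all starts. In the LPS lists it was longer in WTLPS at 12 of 12, 23 of 25, 36 of 37, 16 of 17 and 17 of 18, against 77.0%. Tnfsf4, the ligand of OX40, had 21.2 kb in WT and 6.76 kb in KO, and 28.6 kb in WTLPS and 10.7 kb in KOLPS. Cd86, which costimulates T cells, had 21.0 kb in WT and 9.66 kb in KO, and 40.0 kb in WTLPS and 16.5 kb in KOLPS. Of 23 interferon-stimulated genes 18 were longer in WT and 22 in WTLPS, and the median promoter percentile of the 19 called in all 4 lists fell by 10.7 points from WT to KO and by 3.62 points from WTLPS to KOLPS, against a median of 0.736 points from WT to KO over all 7746 promoters. Of 26 genes for ribosomal proteins, all with promoter H3K27ac in both genotypes, 17 were longer in WT, and their median promoter percentile rose by 9.43 points, with 20 higher in KO.

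Of all protein-coding promoters 41.1% had H3K27ac in both genotypes, 3.01% in WT alone and 3.39% in KO alone. Among transcription factors of myeloid cells 29 of 38 had promoter H3K27ac in both genotypes. 2 had it in WT alone, among them Runx3, and 3 in KO alone, namely Maf, Nr4a1 and Meis1, of which Maf and Nr4a1 were also called in KOLPS alone. Meis1 turned to WTLPS alone and Runx3 to KOLPS alone. In the cell cycle list 22 of 27 had it in both and Bub1, Rrm2 and Cdkn2a in WT alone, and Bub1 again in WTLPS alone. In the list of cohesin and loop factors Pds5b and Hdac8 had it in WT alone and 16 of 19 in both, Ctcf included, whose exons under the deletion this mark does not measure. Among adhesion genes Cdh1, which encodes E-cadherin, and Itgb8 had it in WT alone and Itgb3 in KO alone. Oas1a, Fcgr1 and Fcgr4 had it in KO alone and in both genotypes after LPS. Among developmental genes 19 of 21 Hox genes and 16 of 16 clustered protocadherins had it in neither genotype, against 52.5% of all promoters. Of 23 genes for retinoic acid and lipid metabolism 16 had it in both and 7 in neither.

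Regions that kept their class in both pairs of lists were named by strength. There were 586 WT only regions at protein-coding promoters and 6294 outside promoters that were also called in WTLPS and not in KOLPS, and 346 and 1897 KO only regions with the opposite pattern. The 6 WT only promoter regions of highest −log10 q lay close together at the start of chromosome 9, at Gm10722, Gm11168 and Gm10718, with folds of 2.82 to 5.53, and peaks were called there in 22 to 24 of the 30 lists. The strongest WT only region outside promoters, 199994 bp from the start of Rab10, had peaks in 20 lists, and the 5 strongest shared regions, at Gm10800, Gm10801 and Gm11168, in 11 to 26. All of these places but 1, a shared region at Gm10800 with peaks in 11 lists, had peaks in 20 lists or more, and the KO only region nearest to Gm10717, in 22 lists, lay beside them. The next promoters were Det1 (fold 10.6 in WT, 6.37 in WTLPS), Cluap1 (10.1 and 6.37), Tlr12 (9.66 and 5.01), which encodes a Toll-like receptor, and Saal1 (9.66 and 6.83).

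Outside promoters the WT only regions of highest −log10 q after this one lay nearest to Alppl2 (fold 13.8 in WT, 9.10 in WTLPS, 5243 bp long), Zfy1, Smad7, B4galnt1, Uxs1, Lrrc40, Ankrd27, Prkar2a and Gda, a guanine deaminase (10.1 and 12.3, 5299 bp long). The KO only promoters were Adrm1 (fold 15.1 in KO, 19.1 in KOLPS), Fbxl2 (13.2 and 4.44), S100a8, Ttc7b (10.9 and 8.89), Pyroxd2, Slc16a6 with Arsg, Ccdc80, Asrgl1, Hebp1 and Rdh13, with folds of 9.15 to 15.1 in KO. The Adrm1 promoter also held a WT peak outside this region, at a fold of 4.42. Outside promoters the KO only regions lay nearest to Chl1, Pcca, Cdh26, Gm10717, Slc39a11, F7, Lyz1, the lysozyme of myeloid cells (10.3 in KO and 4.998 in KOLPS), Ykt6, Serpina3b and Dcn. The regions at Chl1 and Pcca were 166 and 152 bp long and were each called in 4 lists, 2 of them for another antibody.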

How the data were processed

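H3K27ac, CTCF, SMC1, STAT5, p65, H3K4me1, H3K4me3 and H3K27me3 were profiled by tagmentation ChIP-seq in BMDCs, in 34 samples of which 4 were inputs, and 30 peak lists were used. The authors aligned reads to mm10 and called peaks with MACS2, and the deposited lists give, for each peak, a fold enrichment over background and −log10 p- and q-values. The submitters' processing notes name BWA 0.7.12, Picard 1.77, MACS2 2.1.2 and deepTools 3.1.3, while the study's methods give other versions of these tools. The study states 2 biological replicates and that replicates were combined once they had been compared, and each condition has 1 list. Fold and −log10 q scale with depth, so shared regions and promoters were ranked as percentiles within a list. Bands of −log10 q and folds at single regions are raw values, so equal values need not mean equal strength in WT and KO.

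Peaks within 500 bp were merged, classes were set by an overlap of 1 bp, and promoters reached 2.5 kb up- and downstream of the starts of 21938 protein-coding genes. Background fragments per base, which rise with fragment number and length, were worked back from fold and −log10 p. No test was made, since each group has 1 list. The region code was tested on simulated data. Python 3.11.15, numpy 2.4.6, scipy 1.17.1, matplotlib 3.10.9 and pyfaidx 0.9.0.4 were used, with sequence from GRCm38.

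Named regions were the 10 of highest −log10 q of each unshared class, at promoters and outside them, that kept their class after LPS, the 5 strongest shared regions, the 10 genes with the most unshared regions of each class within 50 kb, and members of the gene lists called in 1 genotype. One result is not reported here. The members and lists were chosen with earlier results of these data known. Rankings by covered length and by promoter percentile, and the genes named from them, were added after the values were seen, as were examples within lists. Alternatives were other merging distances, overlaps, thresholds, promoter widths and a thinned WT list. The thinned list kept 79370 of 83461 WT peaks, those with a chance of at least 0.5 of being called at the KO coverage. As 66640 were expected at that coverage, this list cannot show whether a result withstands the difference in coverage.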

Additional observations from a re-analysis of the deposited data

Results flagged for a closer look

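At some genes the difference between genotypes had opposite directions without and with LPS. Each value rests on 1 list a condition, and the difference between the pairs of lists was not tested. Covered length within 50 kb was longer in KO without LPS and longer in WTLPS with it at 12 genes flagged here. These genes came from the ranked starts and from some of the gene lists, so the count is not complete. Cd69, which is outside this set, turned in the same way. It had 22.5 kb in WT and 26.3 kb in KO, then 39.7 kb in WTLPS and 22.4 kb in KOLPS. Among the 12 genes the values were as follows. WTLPS minus KOLPS was 6.93 kb at Il1b, 6.68 kb at Mthfd2l, 5.88 kb at Cd70, 5.61 kb at Pvr, 3.87 kb at Socs3, 3.86 kb at Cd14, 2.64 kb at Has1, 2.26 kb at Ltf, 1.3 kb at F830045P16Rik, 0.275 kb at Lgals9, 0.075 kb at Slc36a1 and 0.01 kb at Gas7. WT minus KO without LPS was −9.3 kb at Il1b, −6.80 kb at Mthfd2l, −1.28 kb at Cd70 and −16.0 kb at Socs3.

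Promoter H3K27ac changed genotype at 3 genes of the lists. It was called in KO alone and then in WTLPS alone at Tlr3, at a fold of 6.37 in WTLPS, and at Meis1, at 4.55, and in WT alone and then in KOLPS alone at Runx3, at 4.998 in KOLPS. Of the promoters with the largest change in percentile from WT to KO, 6 moved the other way from WTLPS to KOLPS. KOLPS minus WTLPS was 8.60 points at Mdc1, against −63.7 points without LPS. It was −18.5 points at Rplp0, −16.0 at Zfp963, −4.17 at Doc2g, −2.57 at Rrp15 and −0.915 at Lta, which rose by 66.7, 66.0, 75.5, 71.6 and 67.1 points without LPS.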

How the results depend on the processing

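Of 65 alternative values for 14 results, 36 stayed close to the value reported, 26 moved in size and 3 turned. No paired analysis was possible because each group had 1 list and no result came from a test. The counts of WT only, KO only and shared WT regions were 44049, 28168 and 39412 without merging and 12798, 6993 and 15982 at a −log10 q of 5 or more, and 8835, 5639 and 13442 in the strongest peaks of each list, taken as an equal number from both. Merging within 2000 bp left 13028 WT only and 8627 KO only regions, and sharing by coverage of 50% or more left 17378 shared ones. The shares of WT only minus KO only regions, in percentage points, turned as follows: 0.315 for WT CTCF and 0.021 for WT SMC1 in the strongest peaks, and −0.373 for WT STAT5 within 250 bp of the summit, a setting added after seeing the data. Within 250 bp they were −1.11 for WT CTCF, −2.57 for WT SMC1 and −0.961 for KO STAT5. WT STAT5 gave 0.445 at 5 or more and 0.775 in the strongest peaks, and KO STAT5 −0.935 at 5 or more and −0.208 with summits inside regions. The promoter share gave −6.83 at 5 or more and −8.39 in the strongest peaks. WT only regions called in WTLPS exceeded those called in KOLPS by 27.8 points at 5 or more, 28.0 in the strongest peaks and 22.5 with WT thinned. KO only regions called in KOLPS exceeded those in WTLPS by 11.2 and 12.2 points in the first of these settings and the second. The cause of these changes was not tested.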
